A study of Narcissus tazetta subsp. chinensis with 8 samples.

Results

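Genes of protein breakdown were followed in flowers of the Chinese narcissus cultivar Jinzhanyintai (Narcissus tazetta subsp. chinensis). RNA was sequenced from corolla and from petal, each taken at early flowering (day 1) and at full bloom (day 7). The 4 groups (corolla day 1, corolla day 7, petal day 1 and petal day 7) held 2 biological repeats each, 8 libraries in all, from plants of 1 cultivar kept on a plantation with no treatment named. Neither the number of flowers behind a repeat nor the way corolla was parted from petal is stated in the labels, so p-values measure the spread between these repeats only. Members were the genes whose Swiss-Prot or nr description held ubiquitin, F-box, protease, proteinase, peptidase, proteasome, metacaspase or autophagy. Of 1929 described genes, 66 matched, 2 were dropped because they name an inhibitor, and 64 remained. They split into 30 genes of the ubiquitin system, 32 proteases and 2 autophagy genes.

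Descriptions were deposited only for genes that the authors called as changed between the days, so the day difference itself chose the members. Of the 64, 35 were described through corolla calls alone, 14 through petal calls alone and 15 through both. For a tissue whose calls brought a gene in, its day difference is given below as a description, with no test. Tests are given for the difference between corolla and petal averaged over both days. The choice used the same libraries but not this contrast, which genes called on day passed more often (56.8%) than all genes tested (22.0%). Tests are also given for the day difference in the other tissue. A call in corolla makes a gene a member whatever petal shows, but the word alone means that the authors did not call the gene in the other tissue, so genes with their strongest differences there are left out of those tests. In the authors' deposited table, members just inside the thresholds were aspartic proteinase Asp1 (c109766.graph_c0) in corolla, with a log2 fold change of 1.02 and an FDR of 0.00424, and the E3 ligase MBR1 (c91743.graph_c0), with an FDR of 0.00871. Just outside stood the F-box gene At1g23390 (c85813.graph_c0) in corolla, with an FDR of 0.0113 in the authors' deposited table, and proteasome subunit alpha type-3 (c109710.graph_c2) in petal, with an FDR of 0.0107 there.

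Cells mark proteins for destruction with ubiquitin, a small protein passed from an activating enzyme to a conjugating enzyme (E2) and then to the target with the help of a ligase (E3). F-box proteins are the part of one large class of E3 that recognises the target, and the proteasome is the barrel-shaped machine that cuts marked proteins. Proteases outside this system work in the vacuole, the plastids, the membranes and the cell wall, and autophagy carries parts of the cytoplasm into the vacuole. In petals these routes are known for recycling cell contents as flowers age.

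Levels are FPKM, fragments scaled to transcript length and to the mapped fragments of the library, and are comparable between genes because they are scaled to length. Values given in pairs are repeats 1 and 2, with day 1 before day 7. Day differences are day 7 minus day 1 on the log2(FPKM + 1) scale, which understates changes of weakly expressed genes. All 64 members were listed in both tissues, with means over the 8 libraries from 0.291 to 220.4 FPKM (median 17.4). The calls behind them rested on 56 to 21348 reads summed over the 4 libraries in corolla (median 1929.5) and on 62 to 38021 in petal (median 571.0). The shallowest library of each tissue was day 7 repeat 2, at 0.737 and 0.654 times the depth of day 1 repeat 1. A tissue with fewer cells of a type and cells with less RNA cannot be told apart in such samples. The 4 described MADS-box genes were found by that word, which covers more than petal identity. All 4 were above 0 in every library, and they did not share a direction. MADS-box transcription factor 2 (c106110.graph_c1), a PISTILLATA-type petal factor in rice, was at 446 to 479 and then 165 to 173 FPKM in corolla and at 241 to 268 and then 41.6 to 54.0 FPKM in petal. Factor 16 (c95429.graph_c0) was lower on day 7 too, whereas factor 26 (c95745.graph_c0) and the AGL8 homolog (c96931.graph_c0) were higher, in both tissues.

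Of the 50 members the authors called in corolla, 25 were higher and 25 lower on day 7, where their calls over all genes were 527 higher (0.817% of 64490) and 1180 lower (1.83%). Of the 29 called in petal, 11 were higher and 18 lower, against 376 higher (0.560% of 67182) and 677 lower (1.01%). By limma at an FDR of 0.05, 25 members were past the threshold upward and 30 downward of 63 tested in corolla (background 6.52% and 15.0%), and 16 and 21 of 62 in petal (4.12% and 6.05%). These shares follow from how members were chosen.

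**Figure D1:**
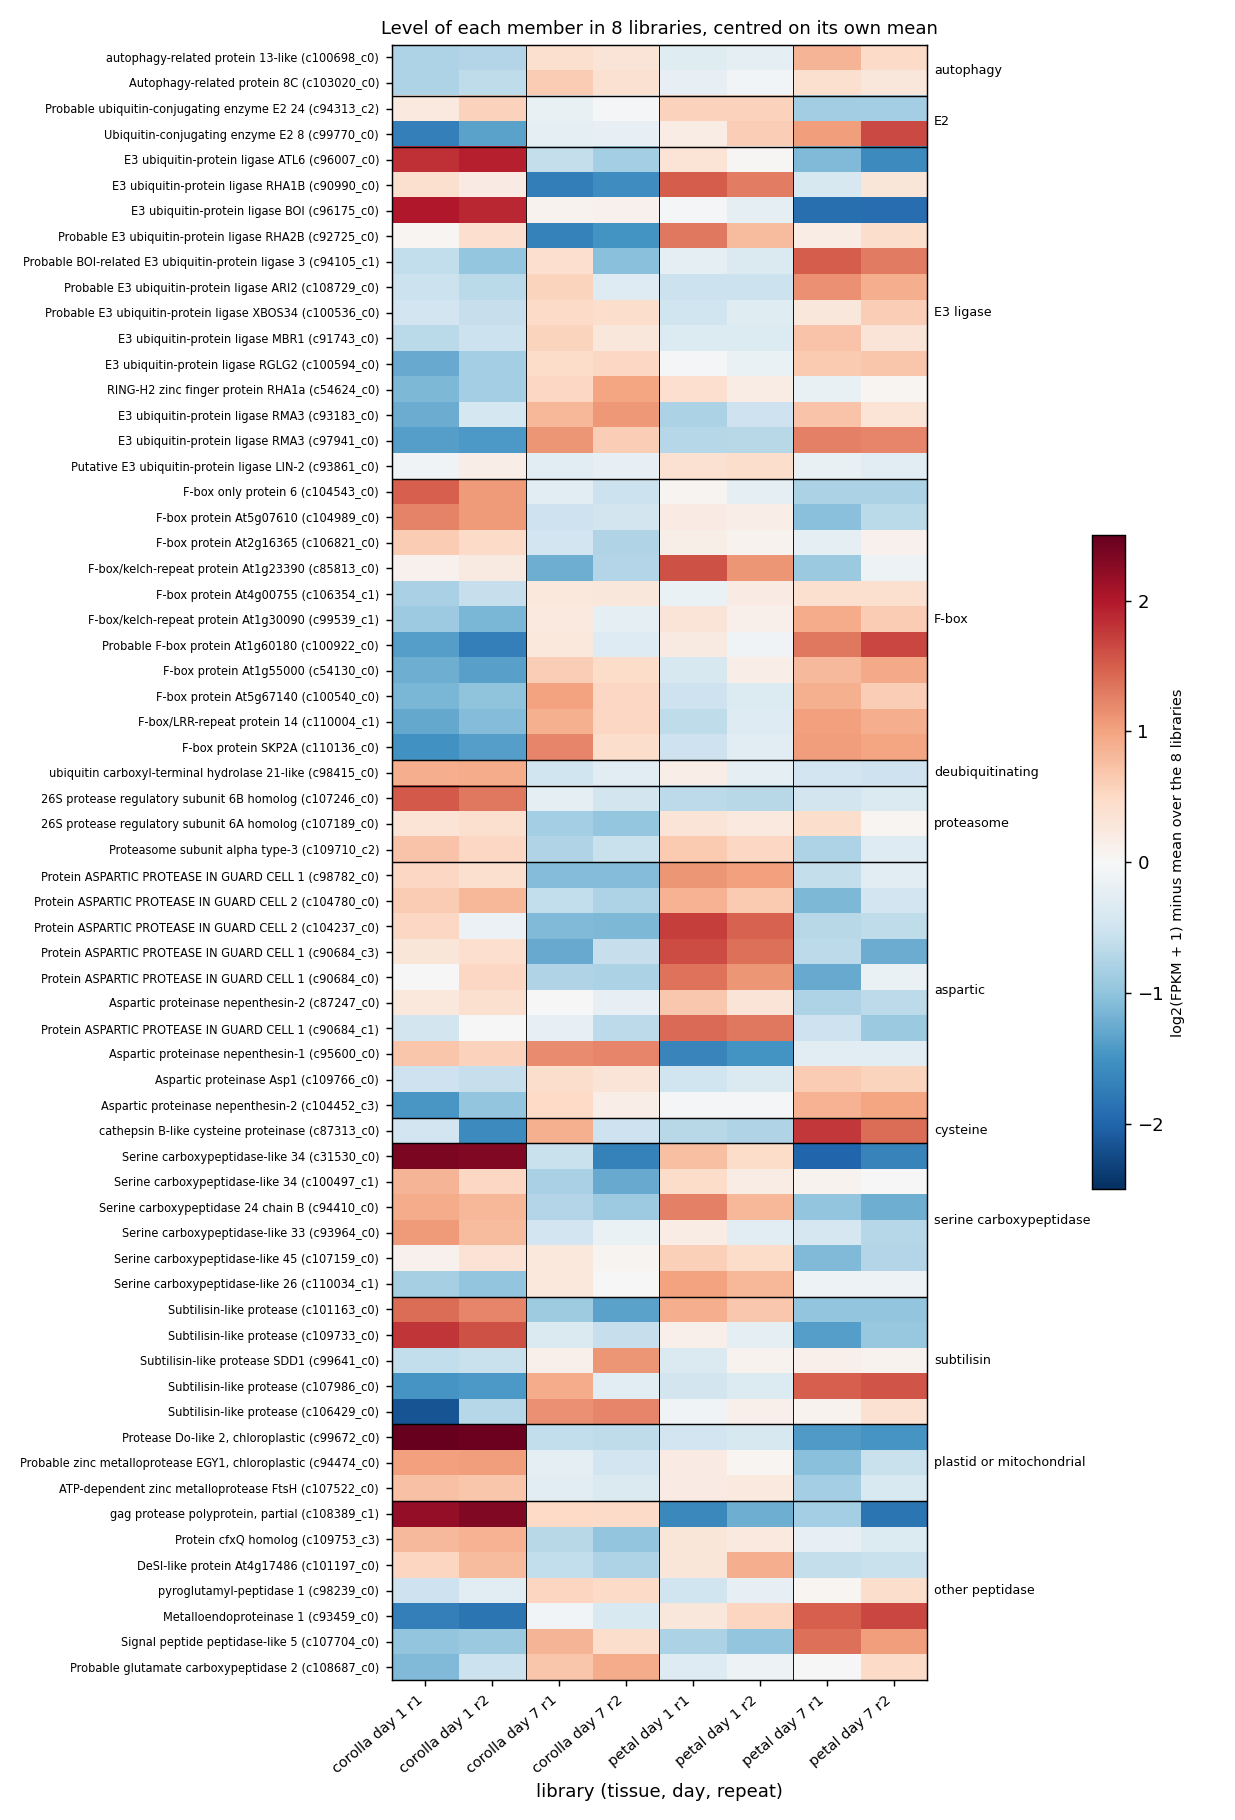
Heat map of all 64 members (rows, grouped by role) in the 8 libraries (columns, ordered by tissue, day and repeat), as log2(FPKM + 1) minus the mean of the gene over the 8 libraries. The F-box block holds 7 of 10 corolla-called genes higher on day 7, and the 3 rows of the proteasome block are all lower on day 7 in corolla.

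Most F-box genes called in corolla were higher on day 7. Of 10 F-box members called in corolla, 7 were higher and 3 lower on day 7, and of 4 called in petal 3 were higher and 1 lower. Over all genes the calls were 527 higher and 1180 lower in corolla, and 376 and 677 in petal. The same counts apply to the role counts below, and no role was tested against them. SKP2A (c110136.graph_c0), which in Arabidopsis targets cell cycle factors, measured 12.4 and 13.6 FPKM on day 1 against 87.6 and 50.9 on day 7 in corolla (log2 difference 2.28 ± 0.27 SE). In petal it stood at 25.6 and 30.8 and then at 77.6 and 74.9 FPKM (1.41 ± 0.15). Both day 7 libraries lay above both day 1 libraries in each tissue. The days were apart for every member in the tissue that called it, with 0 of 50 overlapping in corolla and 0 of 29 in petal. These counts follow from choosing members by day calls in the same tissue, and no share over all genes stands beside them. F-box/LRR-repeat protein 14 (c110004.graph_c1) measured 9.70 and 11.2 FPKM in corolla on day 1 against 47.2 and 35.9 on day 7 (1.89 ± 0.17). In petal the same gene stood at 15.6 and 19.8 and then at 51.8 and 47.5 FPKM. F-box protein At1g60180 (c100922.graph_c0) went from 5.12 and 3.81 to 18.1 and 11.7 FPKM in corolla and from 17.6 and 13.8 to 38.6 and 49.0 FPKM in petal. These 3 were the F-box members called in both tissues, and all were higher on day 7 in both.

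Called in corolla alone were F-box proteins At5g67140 (c100540.graph_c0) and At1g55000 (c54130.graph_c0). The first measured 14.8 and 16.4 FPKM on day 1 against 69.5 and 49.2 on day 7 in corolla. The second stood at 4.81 and 4.28 and then at 19.8 and 17.6 FPKM. Also higher, At4g00755 (c106354.graph_c1) and At1g30090 (c99539.graph_c1), differed by 0.98 and 1.03 on the log2 scale. Lower on day 7 were F-box only protein 6 (c104543.graph_c0) and F-box protein At5g07610 (c104989.graph_c0), the most abundant F-box member. F-box only protein 6 measured 29.0 and 21.1 FPKM in corolla on day 1 against 7.80 and 6.31 on day 7. At5g07610 stood at 104 and 91.7 and then at 29.9 and 31.2 FPKM. At2g16365 (c106821.graph_c0) was lower by 1.17. The single F-box member called in petal alone, At1g23390 (c85813.graph_c0), measured 27.4 and 19.3 FPKM there on day 1 against 3.96 and 7.68 on day 7.

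E3 ligases of the RING and related types were split. Of 10 called in corolla, 6 were higher and 4 lower on day 7, and of 7 called in petal 3 were higher and 4 lower. The ligases with the largest difference upward in corolla were both described as RMA3, a membrane-anchored RING ligase of the endoplasmic reticulum in Arabidopsis. Gene c97941.graph_c0 measured 3.36 and 3.23 FPKM in corolla on day 1 against 23.5 and 16.5 on day 7 (2.27 ± 0.21), and in petal it stood at 5.94 and 6.05 and then at 26.4 and 25.7 FPKM (1.95 ± 0.16). Gene c93183.graph_c0, called in corolla alone, stood at 0.470 and 1.57 FPKM and then at 5.23 and 6.37 FPKM. The counting could have divided reads between such related genes, so their separate levels are uncertain. RGLG2 (c100594.graph_c0), MBR1 (c91743.graph_c0) and the ankyrin-repeat ligase XBOS34 (c100536.graph_c0) differed upward in corolla by 1.54, 1.02 and 0.98. In petal, the BOI-related ligase 3 (c94105.graph_c1) measured 4.85 and 4.34 FPKM on day 1 against 18.6 and 15.9 on day 7. ARI2 (c108729.graph_c0), a RING-between-RING ligase, had 1.02 FPKM in each day 1 library against 5.41 and 4.49 on day 7.

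The 3 ligases lower on day 7 by both sets of calls were ATL6, BOI and RHA1B, all RING-type. ATL6 (c96007.graph_c0), a membrane ligase of carbon and nitrogen responses in Arabidopsis, measured 18.3 and 19.9 FPKM in corolla on day 1 against 2.59 and 2.02 on day 7 (-2.61 ± 0.17). Its petal libraries stood at 5.88 and 4.51 and then at 1.53 and 0.810 FPKM. BOI (c96175.graph_c0), named for its link to Botrytis infection in Arabidopsis, stood at 34.0 and 31.0 and then at 8.27 and 8.45 FPKM in corolla. In petal BOI stood at 7.40 and 6.34 and then at 1.37 and 1.32 FPKM. In both genes the day 7 libraries lay below the day 1 libraries in each tissue, as in every member called lower there. RHA1B (c90990.graph_c0) stood at 35.7 and 31.2 and then at 7.38 and 8.49 FPKM in corolla, and at 78.3 and 66.8 and then at 20.2 and 33.7 FPKM in petal. RHA2B (c92725.graph_c0), which acts in abscisic acid signalling in Arabidopsis, was called in corolla alone, at 7.50 and 9.97 and then at 1.55 and 1.90 FPKM. A RING-H2 gene (c54624.graph_c0), matched to RHA1a and in nr to XERICO, was listed at 0 and 0.200 FPKM in corolla on day 1 and stood at 2.12 and 3.34 FPKM on day 7, on 56 reads in all, while petal had 1.91 and 1.49 and then 0.910 and 1.24 FPKM. The putative ligase LIN-2 (c93861.graph_c0), called in petal, stayed under 1 FPKM in every library and entered no test.

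Both E2 genes were called in 1 tissue each and in opposite directions. Ubiquitin-conjugating enzyme E2 8 (c99770.graph_c0) was called in corolla, with 0.940 and 1.49 FPKM on day 1 against 4.43 and 4.46 on day 7 (1.31 ± 0.24). E2 24 (c94313.graph_c2), the PHO2 enzyme of phosphate balance in Arabidopsis, was called in petal, at 5.64 and 5.61 and then at 1.43 and 1.45 FPKM (-1.44 ± 0.23). The single deubiquitinating member, carboxyl-terminal hydrolase 21-like (c98415.graph_c0), which takes ubiquitin off proteins, stood at 5.70 and 5.80 and then at 1.52 and 1.93 FPKM in corolla (-1.31 ± 0.21).

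All 3 members described as proteasome parts were called in corolla and lower there on day 7. Subunit alpha type-3 (c109710.graph_c2), part of the core barrel, measured 116 and 101 FPKM on day 1 against 41.7 and 47.7 on day 7 in corolla (-1.26 ± 0.12). In petal it stood at 112 and 102 and then at 41.2 and 56.2 FPKM. Corolla and petal overlapped on each day. The other 2 carry Swiss-Prot descriptions of 26S regulatory subunits but different nr descriptions, so their place in the proteasome is uncertain. Gene c107246.graph_c0, matched to regulatory subunit 6B and in nr to a BCS1-type mitochondrial chaperone, stood at 183 and 158 and then at 53.7 and 45.4 FPKM in corolla. Its petal libraries stood at 39.7 and 38.7 and then at 45.3 and 48.6 FPKM. Gene c107189.graph_c0, matched to subunit 6A and in nr to a nuclear valosin-containing protein, stood at 37.0 and 38.4 and then at 15.5 and 14.3 FPKM in corolla, and between 29.9 and 39.5 FPKM in the 4 petal libraries.

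**Figure D2:**
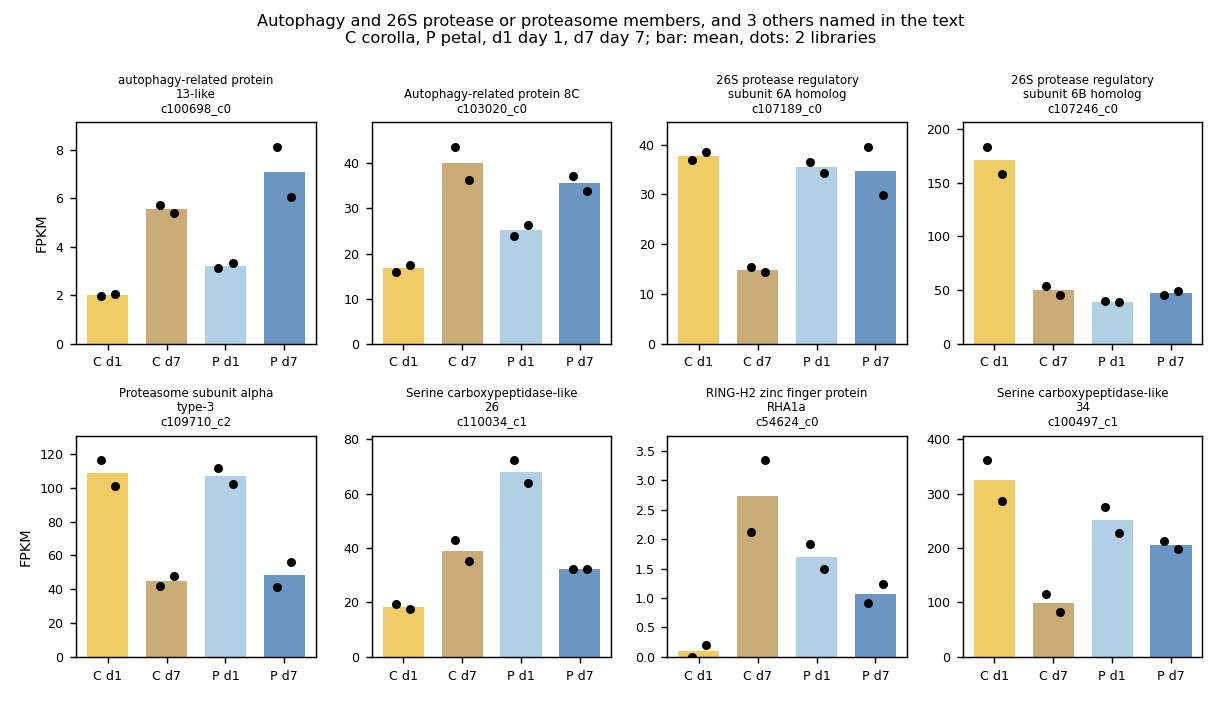
FPKM (linear axis from 0) of the 2 autophagy and 3 proteasome-described members and of serine carboxypeptidase-like 26, the RING-H2 gene c54624.graph_c0 and serine carboxypeptidase-like 34 (c100497.graph_c1) in corolla and petal on day 1 and day 7; bars are means and dots the 2 libraries. Proteasome subunit alpha type-3 is lower on day 7 in both tissues, whereas gene c107246.graph_c0 is above 100 FPKM in corolla on day 1 alone.

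Both autophagy members were called in corolla and higher there on day 7. ATG8C (c103020.graph_c0), the ubiquitin-like protein that coats forming autophagosomes, measured 15.9 and 17.5 FPKM on day 1 against 43.7 and 36.4 on day 7 in corolla. In petal it stood at 23.9 and 26.4 and then at 37.1 and 34.0 FPKM, a smaller difference with groups that do not overlap. ATG13-like (c100698.graph_c0), of the kinase complex that starts autophagy, stood at 1.98 and 2.06 and then at 5.71 and 5.37 FPKM in corolla. Its petal libraries stood at 3.10 and 3.33 and then at 8.11 and 6.05 FPKM.

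Aspartic proteases were the largest protease group, with 10 members. Of 8 called in petal, 7 were lower and 1 higher on day 7, and of 4 called in corolla 2 were lower and 2 higher. Of the 7 lower ones, 6 are described as ASPARTIC PROTEASE IN GUARD CELL. Of these, c90684.graph_c0, c90684.graph_c1 and c90684.graph_c3 come from 1 assembly component and may share reads or be pieces of 1 gene. Gene c90684.graph_c3 measured 43.4 and 36.5 FPKM in petal on day 1 against 8.11 and 5.04 on day 7 (-2.46 ± 0.24). Gene c90684.graph_c0 stood at 37.8 and 31.8 and then at 5.37 and 12.6 FPKM, and gene c90684.graph_c1 at 23.7 and 21.9 and then at 5.48 and 3.85 FPKM. In all 3 the days were apart, as in all 29 members called in petal, with day 7 repeat 2 of c90684.graph_c0 nearest to day 1. A guard cell protease 2 gene (c104237.graph_c0) stood at 9.89 and 8.09 and then at 1.03 and 1.12 FPKM in petal. The 2 called in both tissues, c98782.graph_c0 and c104780.graph_c0, differed by -1.53 and -1.42 in corolla and by -1.50 and -1.56 in petal.

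Aspartic members of the nepenthesin type, named for the pitcher plant enzyme, went in both directions. Gene c87247.graph_c0, the second most abundant member of all 64 by mean, measured 218 and 172 FPKM in petal on day 1 against 79.2 and 86.2 on day 7. Gene c104452.graph_c3, called in corolla, stood at 20.6 and 28.6 and then at 82.7 and 65.0 FPKM (1.55 ± 0.20). Gene c95600.graph_c0 measured 0.520 and 0.680 FPKM in petal on day 1 against 2.92 and 2.95 on day 7. Asp1 (c109766.graph_c0), a rice-type aspartic proteinase, differed upward in corolla by 0.93 ± 0.10. Roles were set by words in the descriptions, so cysteine enzymes under other names would be counted elsewhere. The only member described as a cysteine proteinase was a cathepsin B-like gene (c87313.graph_c0) of the papain family. It was called in petal, at 1.10 and 1.02 and then at 10.6 and 8.01 FPKM (2.31 ± 0.25). In corolla its 4 libraries lay between 0.140 and 5.31 FPKM, and the days overlapped.

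Serine carboxypeptidases trim proteins from the carboxyl end, and some family members work as acyltransferases instead. Of 5 called in corolla 4 were lower on day 7 and 1 higher, and all 3 called in petal were lower. Serine carboxypeptidase-like 34 (c31530.graph_c0) had the largest day difference of all members in corolla on the log2(FPKM + 1) scale, though not as a ratio of FPKM, at 19.1 and 18.5 and then at 1.68 and 0.230 FPKM (-3.45 ± 0.40). In petal it stood at 5.68 and 4.43 and then was listed at 0 and stood at 0.240 FPKM, on 62 reads in all. A second gene of that description, c100497.graph_c1, was the most abundant of the 64, at 361 and 287 and then at 115 and 83.3 FPKM in corolla. Its petal libraries stood at 275 and 228 and then at 214 and 199 FPKM. Serine carboxypeptidase 24 (c94410.graph_c0) stood at 7.13 and 6.62 and then at 1.58 and 1.26 FPKM in corolla, and at 9.18 and 6.55 and then at 1.14 and 0.820 FPKM in petal. Serine carboxypeptidase-like 33 (c93964.graph_c0), on 79 reads in corolla, and 45 (c107159.graph_c0) in petal were lower by calls in 1 tissue. Serine carboxypeptidase-like 26 (c110034.graph_c1) differed from the rest, at 19.4 and 17.5 and then at 42.8 and 35.1 FPKM in corolla.

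Subtilisin-like proteases, serine proteases mostly secreted to the cell wall, were called 2 higher and 2 lower in corolla and 1 and 1 in petal. Gene c107986.graph_c0, called in petal, measured 72.0 and 77.6 FPKM there on day 1 against 278 and 295 on day 7 (1.92 ± 0.13). Gene c106429.graph_c0 stood at 5.02 and 15.5 and then at 58.6 and 61.3 FPKM in corolla (2.61 ± 0.48), while its petal libraries lay between 24.3 and 33.8 FPKM. The SDD1-like gene (c99641.graph_c0), named for a regulator of stomatal density, stood at 0.350 and 0.420 and then at 1.26 and 3.44 FPKM in corolla. Gene c101163.graph_c0, called in both tissues, stood at 51.0 and 45.2 and then at 9.77 and 6.85 FPKM in corolla and at 36.2 and 30.7 and then at 8.98 and 9.02 FPKM in petal. Gene c109733.graph_c0 stood at 74.2 and 64.0 and then at 15.9 and 13.5 FPKM in corolla. Of the 5, 4 share the Arabidopsis entry At5g67360 as best match, so reads may have been divided among them.

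The 3 members described as plastid proteins or as FtsH, a protease of plastids and mitochondria, were lower on day 7 in corolla, and 1 of them was called in petal too. Protease Do-like 2 (c99672.graph_c0), a chloroplast serine protease, measured 19.1 and 17.5 FPKM in corolla on day 1 against 1.20 and 1.18 on day 7 (-3.14 ± 0.17). In petal it stood at 1.41 and 1.56 and then at 0.260 and 0.210 FPKM. EGY1 (c94474.graph_c0), a membrane metalloprotease of chloroplast development, and an FtsH-type gene (c107522.graph_c0) differed by -1.40 ± 0.13 and -1.03 ± 0.11 in corolla. Photosynthesis genes moved with them. The 32 described genes of chlorophyll-binding proteins, photosystems and Rubisco summed to 5719 and 5490 and then to 1511 and 1279 FPKM in corolla. In petal, with 31 of the 32 listed, they summed to 1561 and 1566 and then to 609 and 586 FPKM. They too were described only where the authors had called them, and 32 of 32 were lower on day 7 in corolla and 25 of 25 tested in petal. The part of plastid content in the protease values was not tested.

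The other 7 members cut peptides or isopeptide bonds or carry such a description. Signal peptide peptidase-like 5 (c107704.graph_c0), an intramembrane protease, stood at 6.23 and 6.53 and then at 24.8 and 18.3 FPKM in corolla (1.60 ± 0.18) and at 7.21 and 6.21 and then at 36.2 and 28.3 FPKM in petal (2.10 ± 0.19). Metalloendoproteinase 1 (c93459.graph_c0), described from soybean, stood at 1.22 and 1.04 and then at 5.93 and 4.55 FPKM in corolla and at 7.74 and 9.44 and then at 19.3 and 22.0 FPKM in petal. These 2 were higher on day 7 by both sets of calls. Glutamate carboxypeptidase 2 (c108687.graph_c0), the AMP1 gene of meristem size in Arabidopsis, stood at 8.45 and 13.0 and then at 31.7 and 37.6 FPKM in corolla. Pyroglutamyl-peptidase 1 (c98239.graph_c0) differed by 0.91 ± 0.11 there. Lower in corolla were DeSI-like At4g17486 (c101197.graph_c0), a protease that removes the ubiquitin-like SUMO, the cfxQ homolog c109753.graph_c3, and a gag protease polyprotein (c108389.graph_c1). The last is a retrotransposon product, and the cfxQ homolog is matched in nr to caseinolytic peptidase B, a chaperone, so neither is a protease of cell upkeep by description.

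The day difference of corolla-called members was measured in petal, and that of petal-called members in corolla. Taken with no regard to the authors' call in the tissue measured, 49 of the 50 corolla-called members were tested in petal, where 11 rose and 13 fell by limma with Benjamini-Hochberg adjustment over all genes (49.0%, against 52.6% of the 1531 genes tested of all that the authors called in corolla). Of the 29 petal-called members, 28 were tested in corolla, where 7 rose and 14 fell (75.0%, against 73.9% of 920). The members' shares are near those of all called genes. In direction, 45 of the 49 moved in petal as in corolla and 28 of the 28 in corolla as in petal, against 94.3% and 97.0% of all called genes. Leaving out a day 1 library lowered the calls over all genes in that tissue as well as those of the members. Without petal day 1 repeat 1, 2 passed in petal, both upward, and without petal day 1 repeat 2, 4 rose and 2 fell. Without corolla day 1 repeat 1, 2 rose and 7 fell in corolla, and without corolla day 1 repeat 2, 4 rose and 8 fell.

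Members called in 1 tissue alone lack the genes the authors called in the other, so their shares are held down by that choice and are not set against all genes. Of the 35 members described through corolla calls alone, 34 were tested in petal and 5 rose and 5 fell by limma, or 29.4%, against 31.5% of 1016 genes called in corolla alone. Over all genes tested 10.2% passed in petal and 21.5% in corolla, with no such genes left out. In direction, 30 of the 34 moved in petal as in corolla (88.2%), against 930 of 1016 (91.5%). Their median in petal was 0.23, against -0.05 over all genes tested and -0.52 over the genes called in corolla alone. In corolla 19 of the 35 were higher and 16 lower on day 7, where the authors' calls over all genes were 527 higher and 1180 lower. The petal median therefore carries the directions of the calls that chose the members. Of the 14 described through petal calls alone, 13 were tested in corolla and 1 rose and 5 fell (46.2%), against 44.7% of 405 genes called in petal alone. All 13 moved in corolla as in petal, against 93.3% of the 405. Their median was -0.20, against -0.06 over all genes and -0.21 over the genes called in petal alone.

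**Figure D3:**
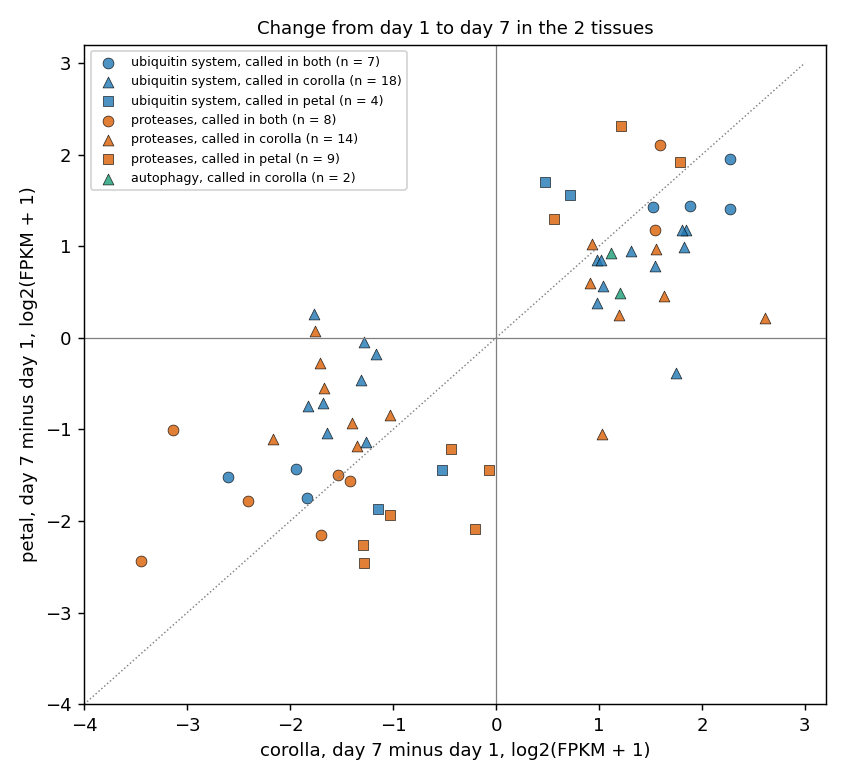
Day 7 minus day 1 on the log2(FPKM + 1) scale in corolla (horizontal axis) and petal (vertical axis) for the 62 members tested in both tissues; colour gives the list and marker shape the tissue whose calls brought the gene in, and the dotted line marks equal change. Points lie in the quadrants of like direction except for 4 called in corolla alone.

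Among the genes that passed in petal after being called in corolla, F-box protein At5g67140 (c100540.graph_c0) measured 23.6 and 26.4 FPKM on day 1 against 63.4 and 52.5 on day 7. It rose by a log2 difference of 1.18 ± 0.16 (limma adjusted p = 0.0169), above both day 1 libraries in each day 7 library. Proteasome subunit alpha type-3 (c109710.graph_c2), with the values given above, fell by 1.13 (-1.13 ± 0.18, limma adjusted p = 0.0260). DeSI-like At4g17486 (c101197.graph_c0) stood at 46.1 and 69.8 FPKM and then at 24.2 and 24.9 FPKM, and fell by 1.18 (limma adjusted p = 0.0354). Subtilisin-like c109733.graph_c0 stood at 22.8 and 17.3 and then at 7.34 and 10.3 FPKM, and fell by 1.10 (limma adjusted p = 0.0467). Serine carboxypeptidase-like 26 (c110034.graph_c1) fell in petal, from 72.3 and 63.9 to 32.4 and 32.4 FPKM (-1.05 ± 0.13, limma adjusted p = 0.0160), where in corolla it was higher on day 7. The other 5 that passed were XBOS34, RGLG2, nepenthesin-2 (c104452.graph_c3) and Asp1, which rose, and At5g07610, which fell. ATG8C (0.48 ± 0.14, limma adjusted p = 0.0890) and ATG13-like (0.93 ± 0.24, limma adjusted p = 0.0674) did not pass in petal. ATG13-like passed with all 8 libraries in 1 fit (0.0223), with at least 5 FPKM in 2 libraries (0.0429) and without petal day 7 repeat 2 (0.0352), and ATG8C passed without that library (0.0463), over ranges of 0.0223 to 0.347 and 0.0463 to 0.545 in the settings tried. Without petal day 1 repeat 1 or without petal day 1 repeat 2, 0 of the 34 passed by limma in either direction, whereas 8 rose and 7 fell, or 11 and 8, at an unadjusted p under 0.05. Without petal day 7 repeat 2, 9 rose and 7 fell, and without petal day 7 repeat 1, 7 rose and 3 fell, with DeSI-like At4g17486 (0.0561) and c109733.graph_c0 (0.0620) past the threshold no longer.

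In corolla, genes called in petal gave 1 riser, subtilisin-like c107986.graph_c0. It measured 34.9 and 35.7 FPKM on day 1 against 190 and 81.1 on day 7 (1.79 ± 0.40, limma adjusted p = 0.0379), so that both tissues had it higher on day 7. The difference rested in part on corolla day 7 repeat 1, without which it was 1.18, and was 2.40 without repeat 2. Guard cell proteases fell, with c90684.graph_c3 at 16.8 and 18.1 and then at 5.02 and 8.58 FPKM (-1.28 ± 0.25, limma adjusted p = 0.0280). Gene c90684.graph_c0 stood at 14.2 and 20.8 and then at 8.08 and 7.76 FPKM (-1.03 ± 0.21, limma adjusted p = 0.0299), whereas c90684.graph_c1 of the same component, at 5.72 and 8.29 and then at 7.02 and 4.89 FPKM, missed the threshold (limma adjusted p = 0.636). Guard cell protease 2 (c104237.graph_c0) stood at 3.68 and 1.98 and then at 0.530 and 0.510 FPKM and fell by 1.30 (limma adjusted p = 0.0466). F-box At1g23390 (c85813.graph_c0) stood at 9.25 and 10.2 and then at 3.05 and 4.73 FPKM and fell by 1.15 (limma adjusted p = 0.0292). The fifth was nepenthesin-2 c87247.graph_c0 (-0.43 ± 0.10, limma adjusted p = 0.0446), which did not pass without corolla day 7 repeat 2 (0.0542), with the replicate block or with all 8 libraries in 1 fit, over a range of 0.0126 to 0.210. BOI-related ligase 3 (c94105.graph_c1), at 3.50 and 2.49 and then at 8.16 and 2.33 FPKM, missed the threshold (limma adjusted p = 0.567). ARI2, E2 24 and the cathepsin B-like gene missed it too. Without corolla day 1 repeat 1 or without corolla day 1 repeat 2, 0 of these members passed by limma, whereas 2 rose and 4 fell, or 1 and 3, at an unadjusted p under 0.05. Without corolla day 7 repeat 2, 3 rose and 3 fell, and c104237.graph_c0 did not pass without corolla day 7 repeat 1 (0.0759) or repeat 2 (0.0798).

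Corolla and petal were then compared over both days, in 1 model of the 4 groups. Of 63 members tested, 11 were higher in corolla and 21 higher in petal (50.8%), where 8.78% and 13.3% of all 26460 genes tested were. Of the 2179 genes tested with a day call by the authors in either tissue, 617 were higher in corolla and 621 higher in petal (56.8%). The members' 50.8% is no higher than that share, and their split by direction was not tested against it. The ubiquitin system had 5 genes higher in corolla and 14 higher in petal of 29, and the proteases 6 and 7 of 32. Both autophagy genes missed the threshold. F-box genes had 2 and 7 of 11. Of these calls, only that of At1g60180 (c100922.graph_c0) passed on day 7 alone, and that of At4g00755 (c106354.graph_c1) was lost with TMM scaling. Median differences, corolla minus petal, were -0.42 for the ubiquitin system and -0.01 for proteases, and -0.08 over all genes tested. TMM scaling moved the counts over all genes from 2323 and 3511 to 3282 and 3033, and those of the members from 11 and 21 to 14 and 18. FPKM are scaled per library, so the levels of the tissues are set side by side across 2 deposited tables. On day 7 alone 5 members were higher in corolla and 10 in petal, where 1074 and 1652 of all 26460 genes tested were.

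BOI (c96175.graph_c0) was higher in corolla by 2.04 ± 0.12 (limma adjusted p = 1.6e-05), and each corolla library lay above each petal library. The gag protease polyprotein (c108389.graph_c1) stood at 57.8 and 62.2 and then at 17.1 and 16.8 FPKM in corolla, and between 2.59 and 6.07 FPKM in petal (2.75 ± 0.21, limma adjusted p = 6.2e-05). Protease Do-like 2 was higher in corolla by 1.89 ± 0.16 (limma adjusted p = 0.000104), beside the higher sums of photosynthesis genes there, and on day 7 alone its difference did not pass (0.0514). Nepenthesin-1 c95600.graph_c0 stood at 6.71 and 6.09 and then at 9.82 and 10.1 FPKM in corolla, above every petal library (1.84 ± 0.14, limma adjusted p = 6.2e-05). Subtilisin-like c109733.graph_c0 was higher in corolla by 1.21 ± 0.14 (limma adjusted p = 0.000622), and on day 7 alone did not pass (0.0687).

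Higher in petal was Metalloendoproteinase 1 (-1.98 ± 0.14, limma adjusted p = 4.6e-05), whose 4 petal libraries all lay above the 4 corolla libraries. E2 8 (c99770.graph_c0) stood at 6.18 and 8.73 and then at 12.1 and 18.8 FPKM in petal, again above every corolla library (-1.74 ± 0.19, limma adjusted p = 0.000410). F-box At1g60180 was higher in petal by a difference of -1.56 ± 0.17 (limma adjusted p = 0.000424), with petal on day 1 overlapping corolla on day 7. RHA1B differed by -1.35 ± 0.16 (limma adjusted p = 0.000665). RHA2B stood at 19.4 and 13.1 and then at 8.30 and 10.1 FPKM in petal (-1.36 ± 0.17, limma adjusted p = 0.000792), and on day 1 alone did not pass (0.0561). These 10 calls held with each library left out in turn. SKP2A (-0.62 ± 0.16, limma adjusted p = 0.0279) and F-box/LRR-repeat protein 14 (-0.48 ± 0.13, 0.0266) were higher in petal with less margin, and leaving out 1 of several libraries, both day 1 corolla libraries among them, ended each call. Gene c107246.graph_c0, matched to 26S subunit 6B, was higher in corolla by 1.08 ± 0.09 (limma adjusted p = 0.000119), but by 2.09 on day 1 and 0.07 on day 7, and on day 7 alone did not pass (0.793). Gene c107189.graph_c0, matched to 6A, was higher in petal (-0.53 ± 0.11, limma adjusted p = 0.00899), with 0.09 on day 1, where it did not pass (0.786), and -1.16 on day 7.

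**Figure D4:**
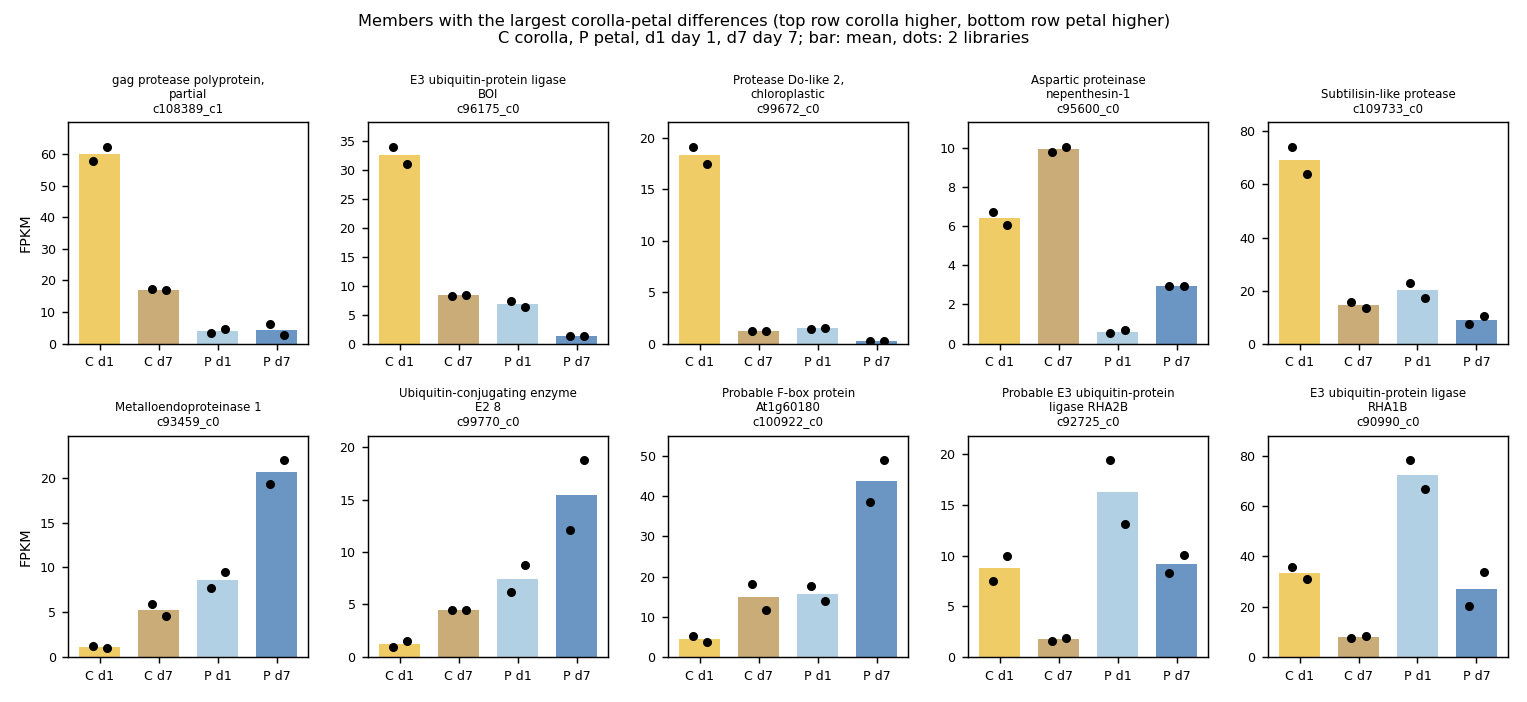
FPKM (linear axis from 0) of the 5 members with the largest difference in favour of corolla (upper row) and of petal (lower row) among those past the threshold, in corolla and petal on day 1 and day 7; bars are means and dots the 2 libraries. BOI, the gag polyprotein and nepenthesin-1 show no overlap between tissues in favour of corolla, and Metalloendoproteinase 1 and E2 8 none in favour of petal.

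Other described genes of these routes lay outside the keywords. Of 9 such genes (U-box, BTB/POZ and RING finger proteins and vacuolar-processing enzyme), the authors had called 8 in corolla, so the count there, 4 higher and 5 lower past the limma threshold, follows from how they were found. In petal, where the authors had called 2, 2 were higher and 1 lower past that threshold. All 9 were described through day calls, so the petal count too depends on how they were found and is not set against all genes. Vacuolar-processing enzyme (c100742.graph_c0), a cysteine protease that matures vacuolar proteins, stood at 2.62 and 2.60 and then at 10.2 and 8.65 FPKM in corolla and at 2.75 and 2.04 and then at 5.68 and 6.20 FPKM in petal. U-box protein 19 (c111143.graph_c1), an E3 type, stood at 2.90 and 2.30 and then at 14.3 and 8.62 FPKM in corolla. Cysteine proteinase inhibitor 1 (c111264.graph_c0), 1 of the 2 genes dropped for naming an inhibitor, stood at 393 and 348 and then at 85.1 and 93.4 FPKM in corolla and at 387 and 476 and then at 6.48 and 30.7 FPKM in petal. Anther and pollen markers, 8 described genes, summed to 130 and 186 and then to 241 and 144 FPKM in corolla and to 113 and 91.7 and then to 57.0 and 51.4 FPKM in petal. In corolla 0 of 7 tested were higher and 4 lower past the limma threshold and in petal 3 and 4 of 7. The 7 tested in petal had all been called there by the authors. All 8 were described through day calls, so both counts depend on how they were found and are not set against all genes. Pollen-specific protein C13 gave 2 genes (c95015.graph_c0 and c32095.graph_c0) that held most of the corolla sum on day 7. Of the 8, 1 was listed at 0 in petal day 1 repeat 2 and in both petal day 7 libraries and 0 in the others, and their part in the members' values was not tested.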

How the data were processed

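The 8 libraries were poly(A) RNA assembled without a genome. Per the submitters' processing notes Bowtie and RSEM were used, with no version given. The deposited FPKM and read counts per gene were made by the authors, with counts deposited for the genes they called. The authors' tables also give a log2 fold change and an FDR per gene, and tests on the tables showed that the described genes pass an FDR of 0.01 and a 2-fold change. No source used here names the test behind that FDR. Total counts per library are not used here, and relative depth came from FPKM divided into counts of called genes.

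Genes reaching 1 FPKM in 2 or more libraries of a fit were tested with limma 3.58.1 (R 4.3.3, moderated with a trend, two-sided) on log2(FPKM + 1), with Benjamini-Hochberg adjustment at 0.05 over all genes. Day fits used the 4 libraries of 1 tissue. The corolla minus petal fit used 8 libraries and averaged the days. Code was tested on simulated data. Members, role lists and tests were chosen with earlier results of these data known. Named were both autophagy genes, the 6 largest differences each way per tissue in each other list, up to 5 calls in the tissue that did not bring a gene in, the 5 largest corolla to petal differences each way and the 3 most abundant members per list. Other members were named to complete a role and were chosen after their values were seen. Alternatives were TMM and median-of-ratios scaling (edgeR 4.0.16 for TMM), a pseudocount of 0.1, a minimum of 5 FPKM, no filter, a single fit of all libraries, single days, a replicate block and leaving out each library, where the lone sample left is assumed to vary like the others.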

Additional observations from a re-analysis of the deposited data

Results flagged for a closer look

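Members whose day difference ran in opposite directions in the tissues, with every library on its own side, were listed whatever the size of the difference. The difference between the tissues was not tested, since the choice of members used the corolla values. The gene matched to 26S regulatory subunit 6B (c107246.graph_c0) was lower on day 7 in corolla (-1.77) and differed by 0.255 on the log2 scale in petal (0.2547, limma adjusted p = 0.256). Serine carboxypeptidase-like 26 (c110034.graph_c1) was higher in corolla (1.03) and fell in petal (-1.045, limma adjusted p = 0.0160). The RING-H2 gene matched to RHA1a (c54624.graph_c0) was higher in corolla (1.75) and differed by -0.38 in petal (limma adjusted p = 0.428), on 56 reads in corolla. Groups of 2 libraries allow no test for a library that stands apart.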

How the results depend on the processing

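With no filter on low FPKM, members past the threshold in petal were 7 up and 5 down, and 0 up and 0 down remained among members not chosen on that tissue, in petal and in corolla. Over all genes that setting gave 175 up and 277 down in petal, against 966 and 1418 in the main fit. In corolla it gave 560 and 1892, against 1462 and 3358. Members chosen in corolla alone gave 10 up and 8 down in petal with all 8 libraries in 1 fit, 9 and 8 at a minimum of 5 FPKM and 8 up with median-of-ratios scaling. Members chosen in petal alone gave, in corolla, 3 down in 1 fit of all libraries and with the replicate block, and 2 up with TMM scaling or at 5 FPKM, where 8 shared the direction. With no regard to the authors' call in the tissue measured, added after the data were seen, the counts were 11 up and 13 down in petal and 7 up and 14 down in corolla. On day 7 only, 5 members were higher in corolla and 10 in petal, against 1074 and 1652 over all genes tested. Leaving out 1 library gave 9 to 25 up and 18 to 28 down in corolla, 3 to 19 up and 1 to 23 down in petal, 0 to 9 up and 0 to 7 down for members chosen in corolla alone, 0 to 3 up and 0 to 4 down for those chosen in petal alone, 11 to 13 higher in corolla and 14 to 23 higher in petal, and 29 to 31 and 10 to 12 of like direction. Fewer libraries enter those fits, and calls over all genes fell too in a tissue when a day 1 library of it was left out. The cause of the other shifts was not tested. Corolla minus petal changed sign for proteasome subunit alpha type-3 (0.0448 with TMM, 0.0494 with median-of-ratios, 0.0219 on day 1, and -0.152 to 0.0666 over libraries left out), serine carboxypeptidase-like 34 (c100497.graph_c1, 0.361 on day 1), ATG8C (0.162 on day 7) and nepenthesin-2 (c87247.graph_c0, -0.175 on day 1). Of the named genes' values under the settings tried, 827 kept direction and side of the threshold, 104 lost the call, 11 gained it and 9 changed sign. With the replicate block the day counts were 23 and 27 in corolla and 16 and 20 in petal. Between days the same repeat numbers deviated with r = -0.00476 in corolla and 0.00084 in petal, so there they share only a number. Same-numbered corolla and petal repeats of a day gave r = 0.139 on day 1 and 0.293 on day 7 over 26460 genes, a hint from the data, since no label ties a number to a plant or date. With a block by day and number, the tissue counts were 11 and 22, and c100497.graph_c1 passed (limma adjusted p = 0.0361, from 0.0962), with no other call changed. Members on under 100 reads are limited by depth, and intervals of counting error were not given since reads per library are known only for called genes.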
